A study of Mus musculus with 12 samples.

Results

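The mouse chromosome that carries the Min allele of Apc, chromosome 18, was described through its CCCGGG sites in colonic adenomas of 4 genotypes. Members were the sites listed on chromosome 18 (mm9) outside the stretch from 37.08 to 38.01 Mb, which holds the clustered protocadherin genes, that had at least 50 reads in each of 11 adenomas. Of 5256 listed sites outside that stretch, 560 met this rule, out of 19905 autosomal sites with the same depth and 173449 sites listed in the series. Both states, methylated and unmethylated, were read at 492 of the 560, and these entered the tests. The other 68 gave reads of 1 state alone, 66 with no methylated read and 2 with no unmethylated read.

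The adenomas were dissected from C57BL/6J mice aged 150 to 160 days, 3 per genotype, and all mice were ApcMin/+. The genotypes were Tet1-/- with normal Tdg, Tet1+/- TdgN151A/+ (double heterozygous below), TdgN151A/+ with normal Tet1 (Tdg heterozygous below), and the control, wild type for both genes. Whether the adenomas of a genotype grew in different mice is not in the labels. The p-values below therefore reflect the spread among these tumours, which may be smaller than that among mice. The absence of Tet1 was taken from the labels and was not checked in these libraries.

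Apc is a tumour suppressor that keeps the Wnt signal in check by sending beta-catenin for destruction. The Min allele is a truncating mutation of Apc, and a Min mouse starts with 1 mutant and 1 normal copy; intestinal adenomas grow from cells in which the normal copy has been lost. In Min adenomas that loss is known to occur through exchange between the homologous chromosomes, which leaves the number of copies unchanged, as well as through physical loss of DNA. Tet1 oxidises 5-methylcytosine and Tdg, a DNA glycosylase, removes the oxidised bases so that repair can restore an unmethylated cytosine. N151A is an amino acid change in Tdg.

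Methylation was measured by digital restriction enzyme analysis, in which SmaI first cuts unmethylated CCCGGG sites and XmaI then cuts the methylated ones, so that each read end records the state of its site. The level given below is the authors' percent methylated, adjusted by them with spiked standards. Read counts also carry a measure of how much DNA of a chromosome entered the library, which is used below for the share of reads on chromosome 18. The mice are inbred, so reads do not tell the Min chromosome from the normal one. The gene table at hand is of another build (GRCm38.p6), so sites are given by mm9 position, were not assigned to genes, exons or promoters, and Apc itself was not placed among them. In the order of that table Apc comes before all 57 clustered protocadherin genes, with 57 protein-coding genes between.

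Total reads ranged from 8213211 to 18865833 in 11 adenomas, with a median of 346.5 to 810.0 reads at the members. Double heterozygous adenoma 3 had 2349576 reads and a median of 87.0 reads at the members. It was left out of the tests and of the genotype means of methylation, so the double heterozygous genotype is represented there by 2 adenomas. Where its values are given below they are named as such.

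The first measurement was the share of autosomal reads that fell on chromosome 18, counted over all its listed sites outside the left-out stretch. It lay close to 2.8% in most adenomas, and 1 double heterozygous adenoma was lower. The share was 2.82, 2.82 and 2.86% in the Tet1-/- adenomas, 2.85, 2.69 and 2.77% in the double heterozygous adenomas, 2.80, 2.79 and 2.82% in the Tdg heterozygous adenomas and 2.83, 2.85 and 2.85% in the control adenomas. Double heterozygous adenoma 2 was the lowest of the 12. The shallow double heterozygous adenoma 3 came next, but not without the 1% of sites with the most reads, where its share was 2.85% and that of Tdg heterozygous adenoma 1 was 2.81%.

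By genotype the share averaged 2.83% ± 0.0228 in Tet1-/-, 2.77% ± 0.0815 in double heterozygous, 2.80% ± 0.0171 in Tdg heterozygous and 2.84% ± 0.014 in control adenomas (SD, n = 3 each). The Tet1-/- and control ranges overlapped. Each Tdg heterozygous value lay below each control value, but not once chromosome 17 or the 1% of sites with the most reads was left out. On a log2 scale against the control mean, chromosome 18 stood at -0.08 in double heterozygous adenoma 2, the lowest of the 19 autosomes in that adenoma, where the next lowest autosome stood at -0.04. In none of the other 11 adenomas was chromosome 18 the lowest autosome, and its log2 ratio there ran from -0.04 to 0.01.

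Over the 12 adenomas the coefficient of variation of the chromosome 18 share was 1.69%, the fourth highest of 19 autosomes after chromosomes 17 (5.33%), 3 (1.86%) and 13 (1.74%). Without double heterozygous adenoma 2 it was 1.04%. Chromosome 17 carried extra reads in several adenomas, up to a log2 ratio of 0.20 in Tdg heterozygous adenoma 2, which lowers the share of every other autosome. With chromosome 17 left out of the total, the ratio of chromosome 18 in double heterozygous adenoma 2 was -0.07.

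**Figure D1:**
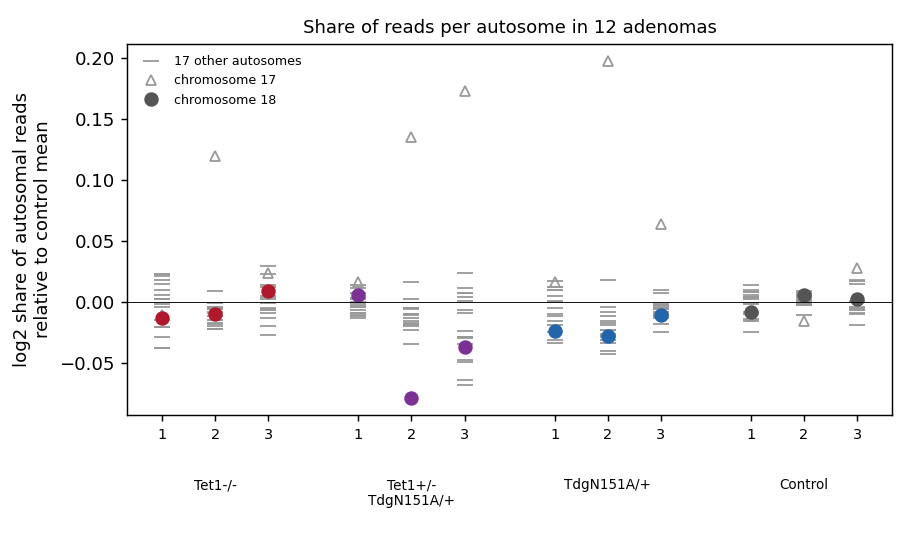
Share of autosomal reads on each autosome in each adenoma, as log2 of its ratio to the control mean (vertical axis), with adenomas along the horizontal axis by genotype. Filled circles are chromosome 18, open triangles chromosome 17 and grey dashes the 17 other autosomes; chromosome 18 is the lowest point in double heterozygous adenoma 2, at -0.08, and lies inside the range of the other autosomes in the other 11 adenomas.

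The lower share of double heterozygous adenoma 2 was not spread evenly over the chromosome. In windows of 10 Mb its log2 ratio of reads to control was -0.30 at 30 to 40 Mb, -0.27 at 40 to 50 Mb and -0.11 at 50 to 60 Mb. It was -0.01 in the window before these, at 20 to 30 Mb, and -0.02 in the window after, at 60 to 70 Mb. Further out it was -0.095 at 0 to 10 Mb, where Tdg heterozygous adenoma 1 had -0.098, and -0.061 at 10 to 20 Mb. The last window, 90 to 100 Mb, with 42 listed sites and no member, stood at -0.373, and at -0.253 in Tet1-/- adenoma 3. In the window of 30 to 40 Mb the other 10 adenomas with deep libraries stood between -0.05 and 0.02.

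Narrower windows of 5 Mb, chosen after these values were seen, placed the lowest reads in 1 contiguous stretch. The 5 lowest of 416 autosomal windows with at least 10 measured sites in this adenoma were the adjoining chromosome 18 windows from 30 to 55 Mb. Their medians were -0.30, -0.30, -0.31, -0.25 and -0.22 in order along the chromosome. The sixth lowest window, also on chromosome 18, stood at -0.15 (5 to 10 Mb), and the SD over the windows outside the stretch was 0.0331. In none of the other 10 deep adenomas did a window of this stretch fall among the 5 lowest. Window values spread more widely in most of those libraries, with an SD outside the stretch of 0.0266 (control adenoma 2) to 0.124 (Tet1-/- adenoma 1). In Tet1-/- adenoma 1 the windows of the stretch ran from -0.21 to 0.06, and the lowest window elsewhere stood at -0.44.

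**Figure D2:**
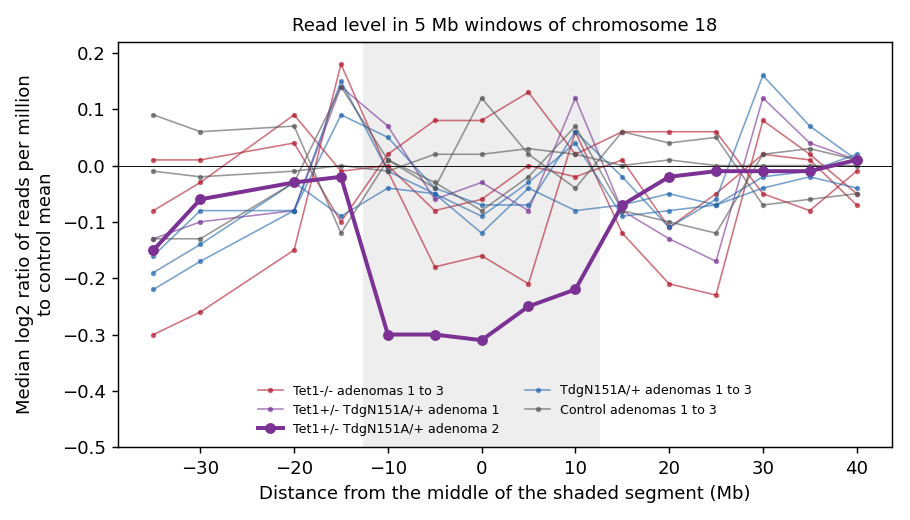
Reads at measured sites in windows of 5 Mb, as the median log2 ratio to the control mean (vertical axis), against the distance of each chromosome 18 window from the middle of the shaded stretch in Mb (horizontal axis), 1 line per deep adenoma coloured by genotype and with double heterozygous adenoma 2 drawn bold. Windows with fewer than 10 measured sites are not drawn. The bold line drops to between -0.31 and -0.22 in the 5 adjoining windows from 30 to 55 Mb; the shallow double heterozygous adenoma 3 is not drawn.

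The stretch from 30 to 55 Mb held 127 of the 560 members. In double heterozygous adenoma 2 their median log2 ratio of reads, scaled to the total of each library, to control was -0.28, a ratio of 0.822, with an interquartile range of -0.34 to -0.21. At 126 of the 127 sites (99.2%) the reads were below the control mean, against 262 of the 433 members elsewhere on the chromosome (60.5%), whose median was -0.02. Neighbouring sites can be the ends of the same fragment and are not independent. Counted by runs of members no more than 500 bp apart, reads were lower in 66 of 66 runs in the stretch and in 129 of 211 runs elsewhere. Since the stretch was chosen for its low reads in this adenoma, these values carry no test.

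The same 127 sites had a median log2 ratio of -0.10, -0.03 and 0.04 in the Tet1-/- adenomas, -0.03 in double heterozygous adenoma 1, -0.05, -0.04 and 0.01 in the Tdg heterozygous adenomas and -0.02, 0.01 and -0.02 in the controls. Double heterozygous adenoma 2 thus stood apart from each of these 10, whose SD was 0.0404. In the shallow double heterozygous adenoma 3 the median was -0.34, but the rest of the chromosome stood at -0.26 in that library, so the stretch did not stand out there. The stretch took 19.8% of the chromosome 18 reads in double heterozygous adenoma 2 and 22.2 to 23.1% in the other 11 adenomas.

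The lower reads were present at sites of each methylation class. In double heterozygous adenoma 2 the median log2 ratio was -0.25 at 70 sites of the stretch with a level below 5%, -0.28 at 6 sites of 5 to 20%, -0.31 at 36 sites of 20 to 80% and -0.31 at 15 sites above 80%. The edges could be placed only roughly, since single sites varied widely. On the low-numbered side, position 25666154 stood at 0.22, position 25757416 at 0.07, position 25837917 at -0.18 and position 25912010 at -0.42. Further along, position 28245660 stood at -0.26 and position 31807554 at -0.32. Inside the stretch, position 53367108 stood at -0.99, on 71 reads, and position 53624854 at -0.11. On the other side, position 55058967 stood at -0.32 and position 56721647 at -0.01.

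Methylation in the stretch did not separate this adenoma from the rest. The mean level over the 127 sites was 25.45% in double heterozygous adenoma 2 and the mean over the other 433 members was 23.55%, a difference of 1.90 points. In the other 10 deep adenomas that difference ran from 0.78 to 3.52 points. Relative to double heterozygous adenoma 1, the mean level of adenoma 2 was lower by nearly as much inside the stretch (-2.02 points) as outside it (-2.11 points). The files hold no copy number measurement, and whether the lower reads go with fewer copies of this stretch was not tested. An adenoma also holds normal cells, and the share of cells behind the lower reads was not measured.

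Across all members the chromosome was mostly unmethylated at these sites. The mean over the 11 adenomas was below 5% at 340 members (60.7%), 5 to 20% at 28 (5.0%), 20 to 80% at 118 (21.1%) and above 80% at 74 (13.2%). On the 18 other autosomes the shares were 59.0, 7.35, 19.3 and 14.3% of 19340 sites. Chromosome 18 ranked ninth of 19 by mean level, at 24.83%, between 19.22% on chromosome 19 and 27.44% on chromosome 8.

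Level went with how closely the CCCGGG sites were packed. Members with no other listed site within 500 bp averaged 39.59% (40 sites) and those with 1 averaged 32.46% (339 sites). Members with 2 such neighbours averaged 8.32% (104 sites) and those with 3 or more 3.53% (77 sites). Of these 4 groups, 40.0, 47.8, 85.6 and 94.8% of sites were below 5%.

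By genotype, mean levels over the chromosome were close, and highest in some of the Tet1-/- and double heterozygous adenomas. The mean over the 560 members was 23.7, 26.84 and 25.7% in the Tet1-/- adenomas, 26.07 and 23.98% in double heterozygous adenomas 1 and 2, 24.26, 23.80 and 24.79% in the Tdg heterozygous adenomas and 23.72, 23.02 and 23.74% in the controls. The genotype means were 25.41% ± 1.59 in Tet1-/- (SD, n = 3), 25.03% ± 1.48 in double heterozygous (n = 2), 24.28% ± 0.497 in Tdg heterozygous (n = 3) and 23.49% ± 0.411 in control adenomas (n = 3). Tet1-/- adenoma 1 lay inside the control range, while the Tdg heterozygous and the double heterozygous adenomas each lay above all 3 controls. The shallow double heterozygous adenoma 3 gave 24.68%.

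Chromosome 18 moved with the rest of the genome in each adenoma. The other autosomes averaged 25.44% ± 1.52 in Tet1-/-, 25.1% ± 1.41 in double heterozygous, 24.21% ± 0.49 in Tdg heterozygous and 23.52% ± 0.268 in control adenomas. Chromosome 18 minus the other autosomes ran from -0.21 to 0.35 points over the deep adenomas. A shift of the kind seen in Tet1-/- adenomas 2 and 3 and in double heterozygous adenoma 1 was thus present on the other autosomes too.

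**Figure D3:**
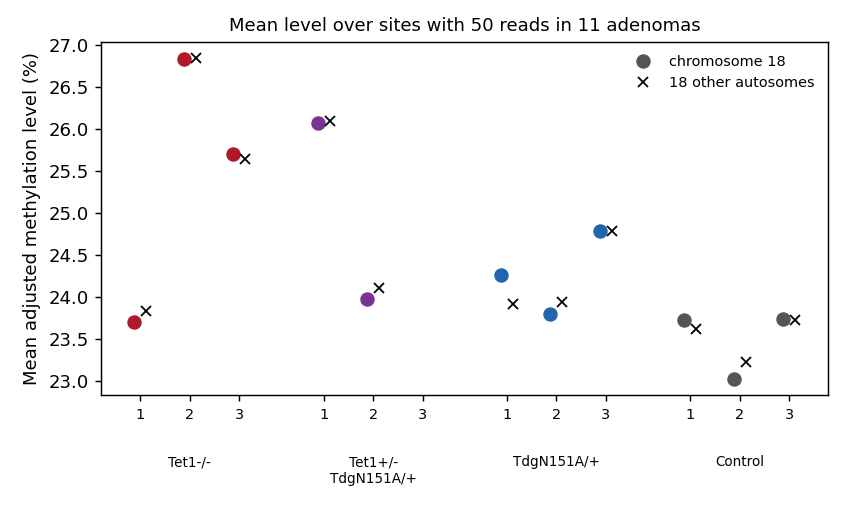
Mean methylation level in percent (vertical axis) over the 560 chromosome 18 sites and over 19340 sites of the other autosomes, by adenoma and genotype (horizontal axis). Circles are chromosome 18 and crosses the other autosomes. The chromosome 18 and other-autosome points of an adenoma lie within 0.35 points of each other; the shallow double heterozygous adenoma 3 is not drawn.

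Split by level class, the differences in mean level lay mostly in the middle of the range. Sites of 20 to 80% averaged 57.63% ± 6.03 in Tet1-/-, 56.76% ± 5.11 in double heterozygous, 54.02% ± 1.65 in Tdg heterozygous and 51.46% ± 1.19 in control adenomas. Sites of 5 to 20% averaged 15.23% ± 1.91 in Tet1-/-, 11.32% ± 5.04 in double heterozygous, 9.20% ± 1.85 in Tdg heterozygous and 8.82% ± 1.37 in control adenomas. Sites above 80% averaged 91.78% ± 1.3, 92.63% ± 1.05, 92.33% ± 0.525 and 90.66% ± 1.33 in the same genotypes. In the class of 5 to 20% the lowest Tet1-/- adenoma (13.11%) was above the highest control (10.38%). The same held for the 340 sites below 5%, with 0.51, 0.70 and 0.67% in Tet1-/- adenomas and 0.33, 0.42 and 0.36% in controls. Both were also seen on the other autosomes. Sites of 5 to 20% had 11.97, 16.8 and 15.35% there in Tet1-/- adenomas and 9.06, 9.6 and 10.08% in controls. Sites below 5% had 0.43, 0.61 and 0.58% against 0.30, 0.33 and 0.31%. On chromosome 18 double heterozygous adenoma 1 (14.88%) lay inside the Tet1-/- range in the class of 5 to 20%. The classes use the mean of all 11 adenomas, so a large difference can itself place a site in a class.

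By 10 Mb window, the Tet1-/- mean was above the control mean in each of the 9 windows with members. The difference ranged from 19.3% ± 0.716 in Tet1-/- and 19.2% ± 0.349 in control adenomas at 50 to 60 Mb to 30.8% ± 3.34 in Tet1-/- and 27.5% ± 1.01 in control adenomas at 30 to 40 Mb. At 30 to 40 Mb Tet1-/- adenoma 1 (27.4%) lay inside the control range (26.7 to 28.7%). A mean above control was not particular to Tet1-/-. The Tdg heterozygous mean was above control in all windows with members but 40 to 50 Mb. The double heterozygous mean was above it in all but 40 to 50 and 50 to 60 Mb. The order of the genotypes otherwise varied between windows. The window of 40 to 50 Mb had 18.9% ± 0.406 in Tet1-/-, 14.2% ± 1.36 in double heterozygous, 15.1% ± 0.814 in Tdg heterozygous and 16.0% ± 2.41 in control adenomas. Control adenoma 1 had 18.7% in that window, while the other controls had 14.2 and 14.9%. That window holds positions 43741702, 43742045, 46625236 and 46625477, which are described below.

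The comparison of Tet1-/- with control adenomas asked where on the chromosome methylation depends on Tet1. Methylation was higher in Tet1-/- adenomas at 9 of 492 tested sites (1.83%) and lower at 0 (edgeR quasi-likelihood test, Benjamini-Hochberg adjusted over 17364 autosomal sites, threshold 0.05). Over all autosomal sites tested, 1.59% were higher and 0.0115% lower (1.6% in either direction), so the share on chromosome 18 was near the background. With no adjustment, 50 sites had p under 0.05 in either direction (10.2%, against 8.67% of all sites tested). Over the 492 sites the median difference was 0.102 points and the mean 2.19, against 0.13 and 2.2 points on the other autosomes, and 65% of sites had the higher mean in Tet1-/- adenomas, against 65.8%. The median difference of the 9 called sites was 10.7 points. Limma called 5 sites on the chromosome, 4 of them among the 9. The edgeR count was 4 without Tet1-/- adenoma 3 and 5 without control adenoma 3. In bulk DNA a change in the mix of cells and a change within cells cannot be told apart.

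The largest difference was at position 43741702. The level was 93.2, 78.7 and 91.4% in Tet1-/- adenomas, 23.1 and 11.6% in double heterozygous adenomas, 7.73, 3.21 and 10.9% in Tdg heterozygous adenomas and 37, 15.8 and 26% in controls, on 440 to 1190 reads. The Tet1-/- values formed a group of their own, far above all others, and the shallow double heterozygous adenoma 3 (11.9%) fell with the low ones. Tet1-/- averaged 87.8% ± 7.92 and control 26.3% ± 10.6, a difference of 61.5 points (edgeR adjusted p = 4.84e-09; limma 0.0018). The call held in each of 11 fits that left out 1 adenoma, with a highest adjusted p of 3.03e-05.

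Position 7005965 was nearly unmethylated outside the Tet1-/- adenomas. Its level was 26, 10.9 and 11.8% in Tet1-/- adenomas, 1.17 and 0.56% in double heterozygous adenomas, 0.96, 0.49 and 1.92% in Tdg heterozygous adenomas and 1.06, 0.69 and 0.59% in controls, on 291 to 1107 reads. All 3 Tet1-/- values stood above the other 8, and double heterozygous adenoma 3 had 1.85%. The difference from control was 15.4 points (16.2% ± 8.45 in Tet1-/- and 0.78% ± 0.248 in control; edgeR adjusted p = 2.47e-07; limma 0.00104). It too was called in each of 11 fits without 1 adenoma. Its neighbour at position 7006422, 457 bp away, had 12.4% ± 1.95 in Tet1-/- and 3.88% ± 0.286 in control adenomas, which did not pass (edgeR adjusted p = 0.147).

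At position 10052170 the level was 43.7, 29.4 and 49.5% in Tet1-/- adenomas, 32.6 and 4.87% in double heterozygous adenomas, 2.77, 6.64 and 18.2% in Tdg heterozygous adenomas and 4.39, 17.7 and 6.97% in controls. Tet1-/- and control values did not overlap, while double heterozygous adenoma 1 lay inside the Tet1-/- range. The difference from control was 31.2 points (40.9% ± 10.4 in Tet1-/- and 9.7% ± 7.08 in control; edgeR adjusted p = 0.000978; limma 0.141). Without control adenoma 1 the edgeR adjusted p was 0.0532.

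At position 25655096 the level was 62.2, 50.3 and 63.5% in Tet1-/- adenomas, 36.4 and 26.6% in double heterozygous adenomas, 50.8, 13.7 and 38.7% in Tdg heterozygous adenomas and 24.2, 24.6 and 17.1% in controls. The Tet1-/- values lay above all controls, and Tdg heterozygous adenoma 1 reached the lowest of them. The difference from control was 36.7 points (58.7% ± 7.26 in Tet1-/- and 22% ± 4.21 in control; edgeR adjusted p = 0.0118; limma 0.0685). The call was lost in 3 of 11 fits without 1 adenoma, with edgeR adjusted p up to 0.169 without Tet1-/- adenoma 3.

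The other 5 called sites were low in all genotypes. Position 51277887 had 13.5% ± 3.82 in Tet1-/- and 2.78% ± 1.59 in control adenomas (edgeR adjusted p = 0.00979; limma 0.146), although Tdg heterozygous adenoma 2 reached 24.4%. Positions 77098377 and 77098517 lie 140 bp apart. They had 9.31% ± 4.78 and 8.49% ± 3.64 in Tet1-/- and 1.14% ± 0.981 and 1.17% ± 0.571 in control adenomas (edgeR adjusted p = 0.0294 and 0.00508; limma 0.0741 and 0.0423).

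Position 58997529 had 4.86% ± 1.02 in Tet1-/- and 1.09% ± 0.871 in control adenomas (edgeR adjusted p = 0.0325; limma 0.0741), while double heterozygous adenoma 2 had 6.00%. At position 76219627 the levels were 1.95% ± 0.29 in Tet1-/- and 0.363% ± 0.32 in control adenomas (edgeR adjusted p = 0.0364; limma 0.0267). These 5 calls depended on single adenomas. Position 77098517 was called in 10 of 11 fits without 1 adenoma, position 51277887 in 8, position 58997529 in 7, and positions 77098377 and 76219627 in 5 each. The highest edgeR adjusted p was 0.109 at position 77098517 without control adenoma 3. It was 0.172 and 0.42 at positions 51277887 and 58997529 without control adenoma 1, and 0.293 and 0.441 at positions 77098377 and 76219627 without control adenoma 2.

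**Figure D4:**
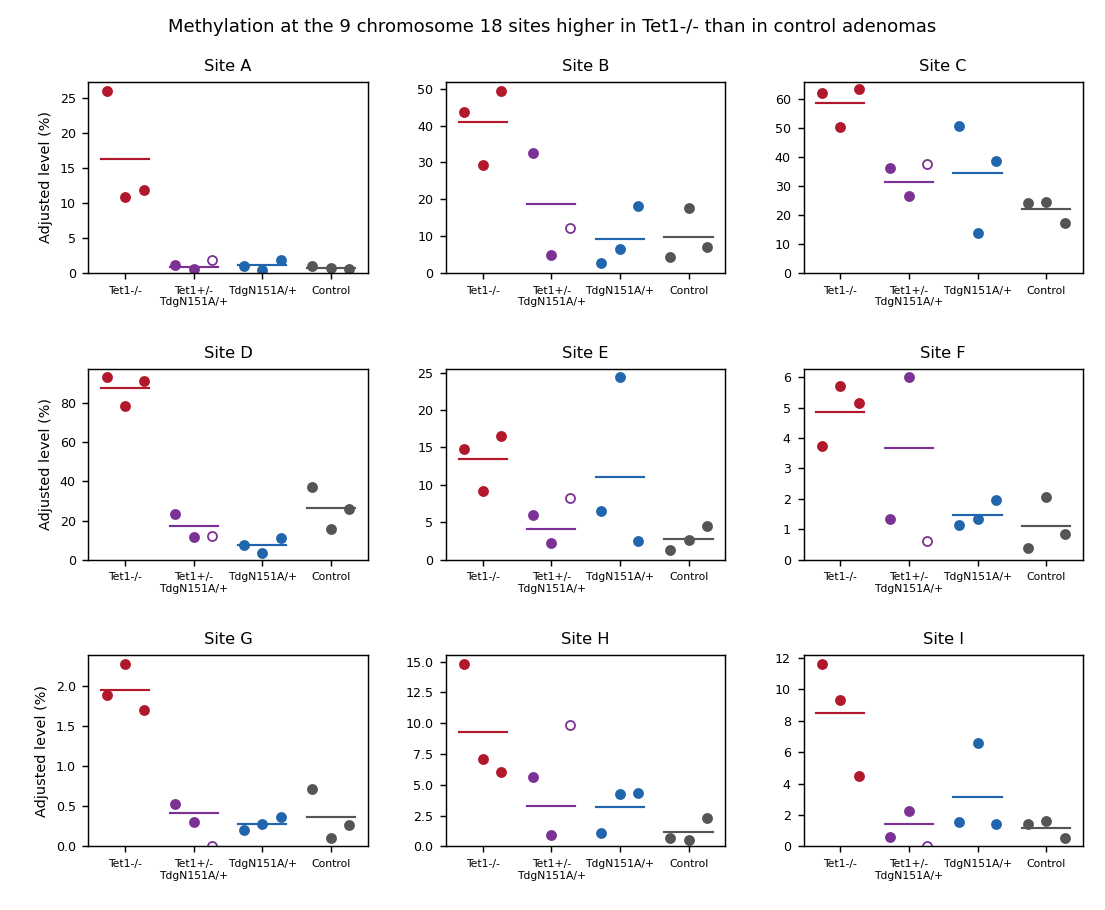
Methylation level in percent (vertical axis) in each adenoma at the 9 chromosome 18 sites higher in Tet1-/- than in control adenomas, 1 panel per site, with genotypes along the horizontal axis and bars at the genotype means. Panels A to I follow position: 7005965, 10052170, 25655096, 43741702, 51277887, 58997529, 76219627, 77098377 and 77098517. In each panel the 3 Tet1-/- points lie above the 3 control points; the open circle is double heterozygous adenoma 3, which is not in the mean.

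Double heterozygous adenomas were compared with control to ask what partial loss of Tet1 together with the Tdg mutation does. No site of 492 passed in either direction, as over all autosomal sites tested (0.0%; edgeR adjusted p, n = 2 against 3). Before adjustment edgeR gave 28 sites with p under 0.05 (5.69%, against 3.74% of all sites tested), and limma called 0. A quasi-binomial model also called 0, but it called 0 simulated changed sites too, so its count says nothing here. The mean difference over the chromosome was 1.75 points, against 1.81 on the other autosomes. The smallest p belonged to position 62952293, with 89.6 and 88.0% in double heterozygous adenomas and 29.2, 76.0 and 52.5% in controls. The double heterozygous values lay above all controls, and the control values spread widely (52.6% ± 23.4; edgeR adjusted p = 0.421). Position 38244758 had 63.7 and 65.7% in double heterozygous adenomas and 17.6, 28 and 40.9% in controls (edgeR adjusted p = 0.763), and Tet1-/- (53.9, 58.2 and 62.2%) and Tdg heterozygous adenomas (64.9, 54.1 and 47.4%) also lay above the controls there.

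Tdg heterozygous adenomas were compared with control to ask about the Tdg mutation alone. Again 0 of 492 sites passed (0.0% over all autosomal sites tested; edgeR adjusted p). Before adjustment 23 had p under 0.05 (4.67%, against 2.99%). Limma called 0 as well. The mean difference was 0.904 points, against 0.786 on the other autosomes. Position 82565815 had the smallest p. Its level was 40.6, 54.3 and 49.6% in Tdg heterozygous adenomas and 89.1, 73.3 and 87.3% in controls, while Tet1-/- adenomas had 91.8, 72.7 and 86.6% and double heterozygous adenomas 81.5 and 85.5%. The Tdg heterozygous values lay below all 8 others. The difference from control was -35.1 points (48.1% ± 6.96 in Tdg heterozygous and 83.3% ± 8.63 in control; edgeR adjusted p = 0.121). Its adjusted p was under 0.05 in 2 of 11 fits that left out 1 adenoma, and these were the fits without double heterozygous adenoma 1 (0.0459) or 2 (0.0454), which do not enter the comparison but share its estimate of the spread. It was 0.983 without control adenoma 1. The double heterozygous adenomas all carry the Tdg mutation too. The shallow adenoma 3 of that genotype had 52.1% there, unlike the 81.5 and 85.5% of adenomas 1 and 2.

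The opposite direction was seen at position 7001556, with 10.9, 2.12 and 12.4% in Tdg heterozygous and 0.18, 0.76 and 8.58% in control adenomas. These values overlapped, and the site did not pass (edgeR adjusted p = 0.534). Without control adenoma 3, which had the 8.58%, it did (0.0117).

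Between mutants, Tet1-/- adenomas were higher than double heterozygous adenomas at 4 of 492 sites (0.813%) and lower at 0 (edgeR adjusted p), against 0.582% higher and 0.00576% lower over all autosomal sites tested (0.587% in either direction). Before adjustment 28 sites had p under 0.05 (5.69%, against 4.58%). The largest difference was again at position 43741702, 70.4 points (edgeR adjusted p = 5.45e-09), followed by position 46625477 with 19.7 points (0.0346), position 7005965 with 15.4 points (3.81e-05) and position 46625236 with 5.37 points (0.0107). Limma called 2 of them, positions 43741702 and 7005965, which were also the ones called in all 11 fits without 1 adenoma. The count was 2 without Tet1-/- adenoma 3 and 2 without double heterozygous adenoma 2. With double heterozygous adenoma 3 added to the fit it was 7.

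Against Tdg heterozygous adenomas, Tet1-/- adenomas were higher at 12 of 492 sites (2.44%) and lower at 0, with 1.69% higher and 0.00576% lower over all autosomal sites tested (edgeR adjusted p). Before adjustment 49 sites had p under 0.05 (9.96%, against 7.7%). The median difference of the 12 was 21.7 points. Limma called 7 sites. The edgeR count was 3 without Tdg heterozygous adenoma 1, 6 without Tet1-/- adenoma 3 and 7 without Tdg heterozygous adenoma 2. Position 43741702 had the largest difference, 80.5 points (edgeR adjusted p = 1.57e-19), with Tdg heterozygous adenomas at 7.29% ± 3.87. Positions 7005965 (15.1 points, 1.46e-06) and 46625236 (5.61 points, 1.12e-05) were, with it, the sites called in all 11 fits without 1 adenoma.

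Position 43742045 lies 343 bp from 43741702. It had 83.7, 83.9 and 84.6% in Tet1-/- adenomas, 61.7 and 48.1% in double heterozygous adenomas, 52.5, 52.1 and 46.6% in Tdg heterozygous adenomas and 82.9, 56.3 and 45.6% in controls. The Tet1-/- values were tightly grouped above all others, with control adenoma 1 just below them. The difference from Tdg heterozygous adenomas was 33.7 points (edgeR adjusted p = 0.00981), that from control 22.5 points (0.244).

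A pair of sites at 46625236 and 46625477, 241 bp apart, showed 1 control adenoma unlike the others. At position 46625477 the level was 26.7, 22.6 and 26.8% in Tet1-/- adenomas, 8.81 and 2.43% in double heterozygous adenomas, 4.25, 3.53 and 8.34% in Tdg heterozygous adenomas and 60.8, 5.08 and 4.03% in controls. Control adenoma 1 exceeded every Tet1-/- adenoma, and the other controls lay with the heterozygous adenomas. Position 46625236 had the same order at a lower level, with 12.6% in control adenoma 1, 3.79 to 8.52% in Tet1-/- adenomas and at most 0.70% in the other 7. The Tet1-/- mean at position 46625477 was 25.4% ± 2.42 against 5.37% ± 2.59 in Tdg heterozygous adenomas (edgeR adjusted p = 0.00244; limma 0.331). Relative to control it differed by 2.05 points (0.536).

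Of the remaining sites that differed from Tdg heterozygous adenomas, position 82565815 had 83.7% ± 9.87 in Tet1-/- and 48.1% ± 6.96 in Tdg heterozygous adenomas (edgeR adjusted p = 0.00337; limma 0.0234). Position 81569284 had 72.4, 58.9 and 70.3% in Tet1-/- and 22.1, 14.6 and 56.9% in Tdg heterozygous adenomas (edgeR adjusted p = 0.0145; limma 0.0696), with double heterozygous adenomas and controls between 52.3 and 61.3%. At both positions the Tdg heterozygous mean was below the control mean, and the Tet1-/- and control ranges overlapped.

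Position 10052170 differed from Tdg heterozygous adenomas by 31.7 points (edgeR adjusted p = 0.000316), position 86882093 by 23.4 points (0.00148), position 7006422 by 9.55 points (0.02), position 74603461 by 9.23 points (0.0396) and position 76219627 by 1.67 points (0.0101). At position 86882093 control adenoma 1 again stood high, with 37.4% against 1.90 and 3.88% in the other controls, and 53.2, 18.3 and 11.6% in Tet1-/- adenomas. Between double heterozygous and Tdg heterozygous adenomas 0 of 492 sites passed (0.0% over all autosomal sites tested; edgeR, smallest adjusted p = 0.806), with 20 under 0.05 before adjustment (4.07%, against 2.63%). Limma called 0 of them.

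The comparisons with Tet1-/- adenomas share those 3 libraries, so their calls are not separate evidence. In all, 17 sites were called in at least 1 comparison, and at each of them the values of the groups compared did not overlap. Sites picked for a small p in groups this small can be expected not to overlap, so this is no separate support. They lay in 13 of the 277 runs of members, and 4 runs held at least 2 of them. These were the pairs at 7005965 and 7006422, 43741702 and 43742045, 46625236 and 46625477, and 77098377 and 77098517. Matching counts of called sites, non-overlap and runs on the other autosomes are not given here, so these counts have no background beside them.

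Adjoining sites did not always move together. Near position 51277887 the member 364 bp before it averaged 0.62% ± 0.555 in Tet1-/- and 0.273% ± 0.0551 in control adenomas. At position 82566082, 267 bp from 82565815, the means were 33.9% ± 12 in Tet1-/- and 43.0% ± 29.3 in Tdg heterozygous adenomas, so the difference at 82565815 was not shared by its neighbour.

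The spread over adenomas was wide at some sites. The level varied by more than 20 points between the lowest and the highest of the 11 adenomas at 125 members (22.3%, against 22.1% of sites on the other autosomes). It varied by more than 50 points at 19 (3.39%, against 1.47%, or 285 sites). The 5 members with the largest SD were positions 43741702, 62039785, 60642947, 82566082 and 36248303. At position 43741702 the Tet1-/- adenomas stood apart from the rest, as given above. At position 62039785, 9 adenomas lay between 77.0 and 92.4%, while Tet1-/- adenoma 1 had 23.0% and Tdg heterozygous adenoma 2 had 23.5%.

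At position 36248303 control adenoma 1 had 21.0% and control adenoma 3 had 60.7%, against 74.7 to 86.7% in the other 9 adenomas. Position 60642947 had 13.2, 62.6 and 32.0% in Tet1-/- adenomas, 61.3 and 18.3% in double heterozygous adenomas, 22.7, 12.4 and 43.7% in Tdg heterozygous adenomas and 9.93, 25 and 15.3% in controls. At position 60642947 the genotype ranges overlapped, and at position 36248303 the spread lay among the controls.

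No member stayed between 35 and 65% in all 11 adenomas, and 136 sites of the other autosomes did (0.703%). At a share that low, few would be found among as many sites as there are members. The absence therefore does not set chromosome 18 apart. Of 51 members with a mean in that range, the median distance between the lowest and the highest adenoma was 35.9 points and the smallest 14.7, against 33.3 and 3.43 points over 1570 such sites elsewhere. At the ends of the scale, 317 members were below 5% in all 11 adenomas (56.6%, against 55.2%) and 49 above 80% in all 11 (8.75%, against 8.55%).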

How the data were processed

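The submitters' processing notes name Trim Galore, Bowtie2 and mm9, with versions not given in the sources used here; a rat build appears in the protocol text of the labels. Per the file headers, read counts were deposited for the methylated and the unmethylated state of each CCCGGG site. Percent methylation is the methylated share of reads, and the authors corrected it with spiked standards, per the labels.

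Members, stretch and lists were chosen with earlier results of these data known. Autosomal sites with at least 50 reads in 11 adenomas and reads of both states (17364) were fitted together in edgeR (version 4.0.16, under R 4.3.3), by the quasi-likelihood test, with a depth coefficient per adenoma, a methylated-count coefficient per genotype and no covariate (common dispersion 0.111). Tests were two-sided, adjusted by Benjamini-Hochberg over those sites, with a threshold of 0.05. The tests were also run on simulated counts, with the same spread, taken from the fit, at every site. Equally many sites were changed by a smaller and a larger amount in Tet1-/-. Against control, edgeR recovered 11 sites with the smaller change and 82 with the larger, and called 1 unchanged site. Limma recovered 14 and 91 and called 4 unchanged sites, but on chromosome 18 itself it called fewer sites than edgeR. Spread differs between sites in the data, so the simulation does not give the share of false calls there. Smaller changes were mostly missed in the simulation. Differences are in points of the adjusted level. Alternatives were limma 3.58.1 on log2 ratios with 2 reads added to each count (also centred), a quasi-binomial model, other depths, fits of the compared genotypes alone, a replicate block, and each adenoma left out.

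Named sites were, per comparison, the called sites with the largest differences whose groups did not overlap, up to 10 in each direction, or the 3 smallest p in each direction where fewer than 3 were called, of which a few are given, and the 5 with the largest SD. Read shares use reads at all listed autosomal sites; 18 standards were left out. Within genotypes, 28.7 to 41.0% of the 373 to 424 members compared per pair differed between adenomas (chi-square p under 0.05). Within a genotype no library thus looked deposited more than once. Pairs from different genotypes were not compared in this way. Figures were drawn with matplotlib 3.10.9.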

Additional observations from a re-analysis of the deposited data

Results flagged for a closer look

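At 4 sites the difference from control of Tet1-/- adenomas and that of double heterozygous adenomas themselves differed, as tested by the direct comparison of these genotypes (edgeR adjusted p under 0.05). At position 43741702 the Tet1-/- adenomas stood 61.5 points above control and the double heterozygous adenomas 8.97 points below (-8.97). At 12 sites the same held for Tet1-/- and Tdg heterozygous adenomas. At position 43741702 the Tdg heterozygous adenomas stood at -19.0 points from control, and at position 82565815 at -35.1 points, where Tet1-/- adenomas stood at 0.453 points.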

How the results depend on the processing

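For the 9 sites called between Tet1-/- and control adenomas, limma gave 5, limma on centred values 2, the quasi-binomial model 0 and the replicate block 4, and fits without 1 adenoma gave 4 to 11. For the 4 between Tet1-/- and double heterozygous adenomas, the counts were 7 with all 12 adenomas, 2 by limma, 1 centred, 0 quasi-binomial and 2 with the block, and 2 to 6 without 1 adenoma. For the 12 between Tet1-/- and Tdg heterozygous adenomas they were 7 by limma, 2 centred, 0 quasi-binomial and 6 with the block, and 3 to 12 without 1 adenoma. Between Tdg heterozygous and control adenomas 0 became 1 with 100 reads in all 12 adenomas, and the count was 0 to 1 without 1 adenoma. The other comparisons without Tet1-/- stayed at 0 in the settings run. The quasi-binomial model made no calls on simulated changed sites either (0), so its count says nothing about stability. Same-numbered adenomas were not treated as pairs. Of 15 such pairs 3 correlated above 0.1 (-0.44 to 0.29). The labels do not say whether same-numbered adenomas belong together, and these correlations, with no other pairs beside them, cannot decide it. The block changed no other count by over 1.5 times.

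Mean levels with minimums of 20 and 100 reads were 30.3 and 23.8% in Tet1-/-, 30.1 and 23.26% in double heterozygous, 29.32 and 22.48% in Tdg heterozygous and 28.5 and 21.78% in control adenomas. Without the 1% of sites with the most reads, read shares were 2.863% in Tet1-/-, 2.821% in double heterozygous (2.772% with them), 2.846% in Tdg heterozygous and 2.868% in control adenomas, and 2.858% in control with the left-out stretch kept. Position 76522835 (-14.9 points between double heterozygous and control adenomas, not called) gave 0.547 without double heterozygous adenoma 2 and -30.4 without adenoma 1. Over the named sites 742 values under other settings kept direction and status, 135 lost the call, 4 gained it and 1 reversed. The 742 include sites not called in the main fit, which kept their status by staying uncalled and had no call to lose. They are thus no measure of how stable the calls were, and the cause of the changes was not tested. The stretch with low reads kept a log2 ratio of -0.29 to -0.26 in alternatives added after the data were seen. Sites under 50 reads, and small differences at the shallow double heterozygous adenoma 3, could not be assessed at this depth.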

Other observations

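The left-out stretch at 37.08 to 38.01 Mb lies inside the stretch with low reads and was not used to find it. Of its 74 listed sites 5 had the minimum depth. Its reads, summed over listed sites, stood at a log2 ratio to control of -0.25 in double heterozygous adenoma 2, on 2185 reads. In the other 11 adenomas the ratio ran from -0.16 to 0.11.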
